A study of Mus musculus with 16 samples.

Results

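The 10 genes described here are Apoe, its chromosomal neighbour Apoc1, the sterol exporters Abca1 and Abcg1, the liver X receptor genes Nr1h2 and Nr1h3, the receptor targets Mylip, Lpcat3 and Pltp, and the lipoprotein receptor gene Scarb1. They were chosen by name, with earlier results of these data known, as a fixed list of rows of the deposited count table. That table held 55356 named gene rows. All 10 passed the filter on low counts and were among the 10634 genes tested. Transcripts were counted in sections of the brachiocephalic artery, the first vessel to leave the aortic arch and a usual site of plaques in hyperlipidemic mice. The 16 libraries came from 16 female mice, 4 in each of 4 groups. The first group was Apoe-/- after 24 weeks on a Western-type diet, the second Apoe-/-Mif-/- after 24 weeks, the third Apoe-/- after 42 weeks and the fourth Apoe-/-Mif-/- after 42 weeks. All mice began the diet, with 0.2% cholesterol and 21.2% fat, at 6 weeks of age. Every group, controls included, therefore lacked functional Apoe, and there were no mice with intact Apoe and none on chow. Mif encodes macrophage migration inhibitory factor, an inflammatory cytokine with chemokine-like activity.

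Macrophages in the arterial wall take up lipoprotein cholesterol and dispose of it by efflux. Oxysterols that accumulate in a loaded cell bind the liver X receptors LXR-alpha, encoded by Nr1h3, and LXR-beta, encoded by Nr1h2. Paired with a retinoid X receptor, these switch on the exporters ABCA1 and ABCG1, which pass cholesterol to apolipoprotein A-I and to high-density lipoprotein, together with apolipoprotein E, phospholipid transfer protein and other lipid-handling proteins. Macrophages are a source of apolipoprotein E within plaques, and its loss is what makes these mice hyperlipidemic.

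Each library was a pool of several 5 µm sections of 1 mouse, scraped from slides with the whole vessel wall, and was made from 1 ng of RNA. Total counts ran from 378066 to 8649518 per library, and the shallowest was library 1 of the Apoe-/- mice at 42 weeks. Levels are given in CPM, the count divided by the library's TMM-scaled total over the tested genes and scaled to a total of 1e6, and 1 count was worth between 0.109 and 2.11 CPM. As a check of the genotype labels, mean Mif levels without and with the deletion were 141 ± 33.5 and 12.8 ± 6.69 CPM at 24 weeks (SD, n = 4) and 160 ± 116 and 9.35 ± 5.06 CPM at 42 weeks (two-sided exact permutation p = 0.0286 each, the smallest that 4 against 4 can give). In the edgeR fit used for the 10 genes, Mif itself was not called: the log2 fold change was -3.46 at 24 weeks (adjusted p = 0.341), -4.11 at 42 weeks (adjusted p = 0.176) and -3.78 averaged over durations (adjusted p = 0.109). Of the markers of the vessel wall, Acta2 ran from 426 to 12016 CPM and the macrophage gene Cd68 from 85.7 to 3948 CPM over the 16 libraries. The smooth muscle gene Tagln was at 0 in 1 library and reached 46.4 CPM, and the macrophage gene Mrc1 was at 0 in 3 libraries. Alb, the defining transcript of hepatocytes, which also express many of the 10 genes, had a median of 0.619 CPM. It was at 0 in 3 libraries and reached 142 CPM. The codes in the library titles carry the letter C for the 4 Apoe-/-Mif-/- libraries at 24 weeks and B for the other 12. These letters are read here as plate rows, which is an inference from the codes. Row and group cannot be told apart for those 4.

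Promoter sequence is shown for Abca1 and Pltp, because their levels were the most alike of all pairs among the 10 genes across libraries. The 250 bases before the annotated start are given for each, on the gene's own strand, from RefSeq in build GRCm38.p6. Capitals mark a match to the paired receptor-binding motif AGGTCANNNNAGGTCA.
Abca1, chr4:53159896-53160145, minus strand: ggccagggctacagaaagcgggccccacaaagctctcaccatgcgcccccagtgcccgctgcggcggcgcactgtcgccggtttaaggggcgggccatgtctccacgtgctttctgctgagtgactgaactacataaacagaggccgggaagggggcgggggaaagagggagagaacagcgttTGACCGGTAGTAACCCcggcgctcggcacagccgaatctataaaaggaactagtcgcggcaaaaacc
Pltp, chr2:164857709-164857958, minus strand: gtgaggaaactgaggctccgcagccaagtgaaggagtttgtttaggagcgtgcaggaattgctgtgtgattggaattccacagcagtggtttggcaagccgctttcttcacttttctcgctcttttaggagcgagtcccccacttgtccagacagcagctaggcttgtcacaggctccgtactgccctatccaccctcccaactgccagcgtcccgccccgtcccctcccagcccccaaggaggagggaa

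The motif was searched on both strands, over windows that also held 50 bases after the start. The search covered 10 promoters of the 7 genes with an entry (Apoe, Abca1, Nr1h2, Nr1h3, Mylip, Lpcat3 and Pltp). With up to 2 mismatches at its 12 fixed bases, no promoter of these genes matched, against 3.02% of the 32851 promoters in the table. With up to 3 mismatches, a limit tried after that result was seen, the Abca1 promoter matched once, on the opposite strand and starting 67 bases before the start. At that limit 21.9% of all promoters held a match. The single half-site AGGTCA was in none of the 10 promoters of the 7 genes. It was in 16.3% of all promoters, or at 18.1% of all genes with an entry. The match describes letters in a window, and binding was not measured.

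Apoe transcripts were counted in all 16 libraries, with 6 to 1615 counts. The authors' labels do not give the allele, and a count over the whole gene cannot tell whether reads lie outside the disrupted part, so these values do not check the genotype. In Apoe-/- arteries at 24 weeks, libraries 1 to 4 held 74.7, 91.0, 38.3 and 6.88 CPM, and those of Apoe-/-Mif-/- mice 39.9, 3.08, 111 and 9.25 CPM. After 42 weeks these were 148, 4.73, 32.2 and 1127 CPM in Apoe-/- mice, and 6.68, 29.2, 194 and 2.58 CPM in the Apoe-/-Mif-/- group. All groups overlapped, and single libraries set the means at 42 weeks. Library 4 of the Apoe-/- mice held 58.7% of the CPM summed over the 16 libraries. The Apoe-/- mean at 42 weeks was 328 ± 536 CPM (SD, n = 4) with it and 61.5 ± 75.8 CPM (n = 3) without it. The Apoe-/-Mif-/- mean was 58.2 ± 91.4 CPM, and 12.8 ± 14.4 CPM without library 3. The fitted log2 fold change of 42 against 24 weeks in Apoe-/- mice was 2.64 ± 1.38 (SE; edgeR adjusted p = 0.435), and 0.14 without library 4. For Mif deletion at 42 weeks it was -2.49 ± 1.37 (edgeR adjusted p = 0.342), -0.06 without that library and -4.73 without library 3 of the Apoe-/-Mif-/- mice.

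Apoc1 encodes a small apolipoprotein that inhibits lipoprotein uptake and lies next to Apoe on the chromosome. It was the least well measured of the 10, with at least 10 counts in 6 libraries. Levels were 35.4, 0.507, 16.1 and 38.1 CPM in Apoe-/- mice, and 2.62, 0.410, 30.6 and 0.925 CPM in the Apoe-/-Mif-/- group at 24 weeks. By 42 weeks levels were 6.32, 0.295, 69.4 and 1.40 CPM in Apoe-/- mice, and 1.03, 2.79, 4.07 and 0.860 CPM in the Apoe-/-Mif-/- group. At 42 weeks, library 3 of the Apoe-/- mice stood far above the other 3, and the groups overlapped. The log2 fold change of Mif deletion at 42 weeks was -3.14 ± 1.79 (edgeR adjusted p = 0.357) and -0.12 without that library. Although Apoc1 and Apoe are neighbours, their highest libraries differed. Spearman's rho between them was 0.41 over the 16 libraries (Pearson's r 0.25) and 0.24 within the 12 libraries of plate row B.

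Abca1, the exporter that loads cholesterol onto lipid-poor apolipoprotein A-I, stood highest in Apoe-/- arteries after 42 weeks. Levels there were 14.8, 231, 172 and 150 CPM, against 11.6, 31.9, 45.0 and 10.3 CPM at 24 weeks. Apoe-/-Mif-/- arteries held 19.6, 117, 29.6 and 2.78 CPM at 24 weeks and 5.14, 37.6, 41.4 and 1.29 CPM at 42 weeks. Libraries 2, 3 and 4 of the Apoe-/- mice at 42 weeks lay above all 12 libraries of the other groups. The remaining library of that group was the shallowest of the study, its value rested on 7 counts, and it lay within the range of the others, so the groups overlapped. Group means were 24.7 ± 16.7 and 142 ± 91.6 CPM in Apoe-/- mice (24 and 42 weeks) and 42.2 ± 50.9 and 21.4 ± 21.1 CPM in Apoe-/-Mif-/- mice (SD, n = 4). The difference between durations in Apoe-/- mice had a log2 fold change of 2.52 ± 1.34 (edgeR adjusted p = 0.441) and that of Mif deletion at 42 weeks one of -2.74 ± 1.35 (adjusted p = 0.290). Exact permutation tests of 4 against 4 gave an unadjusted p = 0.0857 for each. Without the shallowest library the same fold changes were 3.00 and -3.20 (edgeR adjusted p = 0.388 and 0.247). Both of these comparisons use the Apoe-/- libraries at 42 weeks, so they are not independent of each other.

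Abcg1, which exports cholesterol to high-density lipoprotein, likewise had its highest mean in Apoe-/- arteries after 42 weeks. Levels in Apoe-/- arteries were 43.4, 67.5, 73.1 and 15.6 CPM at 24 weeks and 255, 581, 149 and 46.0 CPM at 42 weeks. Apoe-/-Mif-/- arteries held 52.4, 136, 95.8 and 43.0 CPM at 24 weeks and 12.3, 142, 84.3 and 9.46 CPM at 42 weeks. Libraries 1 to 3 of the Apoe-/- mice at 42 weeks lay above all libraries of the other groups, and library 4 lay among them. Here the shallow library 1 was one of the high ones, with 121 counts of Abcg1. For 42 against 24 weeks in Apoe-/- mice the log2 fold change was 2.37 ± 1.11, with an edgeR adjusted p = 0.381 and a p before adjustment of 0.0403 in the same model. It was 1.57 without library 2. The fold change in Apoe-/-Mif-/- mice was -0.41 ± 1.06 (edgeR adjusted p = 0.909), and 0.39 with DESeq2's size factors. The interaction, which tests whether the genotype difference changed with duration, was -2.77 ± 1.53 for Abcg1 (edgeR adjusted p = 0.410) and -3.51 ± 1.85 for Abca1 (adjusted p = 0.380). Neither passed, so a difference in the course of the exporters between genotypes was not detected.

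**Figure D1:**
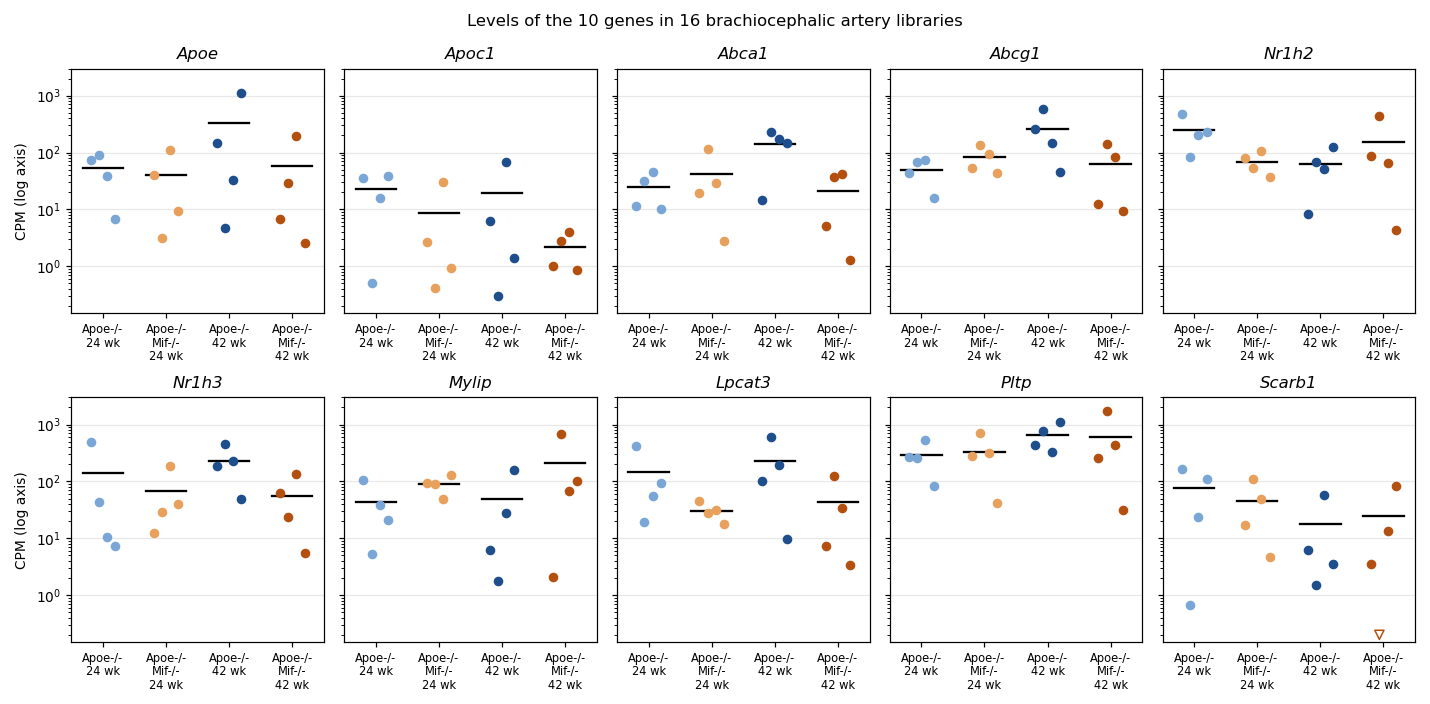
CPM of each gene on a log axis, with 1 point per library, in the 4 groups of 4 mice; black lines are group means and the open triangle marks the library without Scarb1 counts, drawn at the foot of the axis. In Apoe-/- arteries at 42 weeks 3 of 4 points for Abca1 and for Abcg1 lie above all points of the other groups, and the mean for Apoe is set by 1 point at 1127 CPM.

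Nr1h3, the LXR gene of macrophages and liver, ranged from 5.59 to 495 CPM. Levels were 495, 43.9, 10.7 and 7.19 CPM in Apoe-/- mice, and 12.4, 28.9, 190 and 40.2 CPM in the Apoe-/-Mif-/- group at 24 weeks. After 42 weeks they were 185, 458, 226 and 48.8 CPM in Apoe-/- mice, and 62.2, 23.7, 134 and 5.59 CPM in the Apoe-/-Mif-/- group. The first Apoe-/- library at 24 weeks was the highest of all and made up most of its group's mean, which was 139 ± 238 CPM (SD, n = 4) with it and 20.6 ± 20.3 CPM (n = 3) without it. At 42 weeks 3 of 4 Apoe-/- libraries lay above all 4 Apoe-/-Mif-/- libraries and the remaining 1 lay between them. The log2 fold change of Mif deletion at 42 weeks was -2.02 ± 1.24 (edgeR adjusted p = 0.386, exact permutation p = 0.0857). Averaged over both durations it was -1.53 ± 0.86 (edgeR adjusted p = 0.461), and -0.16 without library 1 of the Apoe-/- mice at 24 weeks.

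Nr1h2, the broadly expressed LXR gene, had another order of groups, with its highest mean in Apoe-/- arteries at 24 weeks. Levels were 480, 84.4, 205 and 230 CPM there and 79.2, 52.5, 105 and 37.0 CPM in Apoe-/-Mif-/- arteries of the same duration. The 42-week levels were 8.43, 68.8, 50.9 and 124 CPM in Apoe-/- mice, and 85.3, 447, 65.4 and 4.30 CPM in the Apoe-/-Mif-/- group. At 24 weeks 3 of 4 Apoe-/- libraries lay above all 4 Apoe-/-Mif-/- libraries, and library 2 lay between them. The log2 fold change of Mif deletion at 24 weeks was -1.87 ± 1.10 (edgeR adjusted p = 0.794), and that of 42 against 24 weeks in Apoe-/- mice was -1.98 ± 1.10 (adjusted p = 0.476). The exact permutation p was 0.0571 for both, the smallest among the 60 such tests of the 10 genes. At 42 weeks the fitted genotype difference was 1.24 ± 1.08 (edgeR adjusted p = 0.570), and -0.30 without library 2 of the Apoe-/-Mif-/- mice, the one at 447 CPM. The interaction was 3.11 ± 1.54 (edgeR adjusted p = 0.354), and 1.61 without that library. The receptor pair did not vary together, with a Spearman's rho of 0.00 between Nr1h2 and Nr1h3 over 16 libraries.

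Lpcat3 encodes an acyltransferase that puts polyunsaturated chains into membrane phospholipids and is a target of the LXRs. Its levels in Apoe-/- arteries were 412, 19.1, 55.6 and 92.8 CPM at 24 weeks and 101, 608, 193 and 9.77 CPM at 42 weeks. Apoe-/-Mif-/- arteries held 44.5, 27.9, 32.1 and 17.6 CPM at 24 weeks and 7.19, 127, 34.2 and 3.44 CPM at 42 weeks. At 24 weeks 3 of 4 Apoe-/- libraries lay above all 4 Apoe-/-Mif-/- libraries, while at 42 weeks the ranges were interleaved. Averaged over both durations, the log2 fold change of Mif deletion was -2.33 ± 0.87 (edgeR adjusted p = 0.246). That was the smallest adjusted p among the 70 values of the 10 genes in 7 comparisons, with 0.0108 before adjustment. The exact permutation test within durations gave p = 0.0584. The fold change was -2.25 ± 1.22 at 24 weeks and -2.42 ± 1.24 at 42 weeks (edgeR adjusted p = 0.755 and 0.302). At 24 weeks it was -0.86 without library 1 of the Apoe-/- mice. At 42 weeks it was -1.18 without library 2 of the Apoe-/- mice and -3.98 without library 2 of the Apoe-/-Mif-/- mice.

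Mylip encodes IDOL, a ubiquitin ligase that marks the low-density lipoprotein receptor for degradation. Its levels were 108, 5.23, 38.3 and 20.6 CPM in Apoe-/- mice, and 94.95, 91.5, 48.5 and 127 CPM in the Apoe-/-Mif-/- group at 24 weeks. At the later time they were 6.32, 1.77, 27.3 and 160 CPM in Apoe-/- mice, and 2.05, 670, 67.3 and 99.8 CPM in the Apoe-/-Mif-/- group. All groups overlapped, and the 42-week groups each spanned a wide range, from 1.77 to 160 and from 2.05 to 670 CPM. Averaged over durations, Mif deletion had a log2 fold change of 1.58 ± 0.91 (edgeR adjusted p = 0.474). It was 0.60 without library 2 of the Apoe-/-Mif-/- mice at 42 weeks.

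Pltp, the phospholipid transfer protein that remodels high-density lipoprotein, was the most abundant of the 10 per length of transcript. Its median was 127 CPM per kb of exon, followed by Nr1h2 with 24.4, Nr1h3 with 18.4, Mylip with 17.9 and Apoe with 16.5. Lpcat3 had 12.1, Abcg1 9.63, Apoc1 3.63, Abca1 2.97 and Scarb1 1.78 CPM per kb. Pltp had the highest level per kb of the 10 in 11 of 16 libraries. From library to library the ranges of neighbouring genes in this order overlapped. Pltp levels were 267, 255.6, 543 and 83.1 CPM in Apoe-/- mice, and 277, 706, 313 and 42.1 CPM in the Apoe-/-Mif-/- group at 24 weeks. By 42 weeks they stood at 432, 765, 336 and 1110 CPM in Apoe-/- mice, and 262, 1703, 443 and 31.0 CPM in the Apoe-/-Mif-/- group. Group ranges overlapped throughout, and the lowest value in both Apoe-/-Mif-/- groups came from library 4. Pltp also had the smallest spread of the 10, with a biological coefficient of variation of 0.903 against a median of 1.31 over all tested genes. Averaged over genotypes, 42 against 24 weeks had a log2 fold change of 1.03 ± 0.62 (edgeR adjusted p = 0.474), and 0.45 without library 2 of the Apoe-/-Mif-/- mice at 42 weeks.

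Scarb1 encodes SR-BI, a receptor for high-density lipoprotein that moves cholesterol in both directions across the membrane. Its levels were 166, 0.675, 23.4 and 111 CPM in Apoe-/- mice, and 17.0, 109, 48.3 and 4.63 CPM in the Apoe-/-Mif-/- group at 24 weeks. After the longer diet they were 6.32, 1.48, 58.7 and 3.49 CPM in Apoe-/- mice, and 3.60, 0, 13.2 and 82.6 CPM in the Apoe-/-Mif-/- group. In library 2 of the last group no count was found, which at its depth allows up to 4.18 CPM (3 counts, counting error only). Each group held libraries near the low end and at least 1 far above them. For 42 against 24 weeks in Apoe-/- mice Scarb1 had a log2 fold change of -2.08 ± 1.56 (edgeR adjusted p = 0.627). It was -4.39 without library 3 of the 42-week mice and -1.31 without library 1 of the 24-week mice.

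Across all 7 comparisons, none of the 10 genes passed an adjusted p of 0.05 in edgeR's quasi-likelihood test. For genotype at each duration and for duration in each genotype, none of the 10 had groups of libraries that did not overlap. The share of all tested genes that passed was 0.047% for Mif deletion at 24 weeks, 0% at 42 weeks and 0% averaged over durations. It was 0% for 42 against 24 weeks in Apoe-/- mice, 0.122% in Apoe-/-Mif-/- mice and 0.0376% averaged over genotypes, and 0.686% for the interaction. Groups did not overlap for 3.84% and 2.2% of tested genes between genotypes at 24 and 42 weeks, and for 4.16% and 4.38% between durations in Apoe-/- and Apoe-/-Mif-/- mice. At an unadjusted edgeR p under 0.05, Abcg1 passed for duration in Apoe-/- mice, where 12.2% of all tested genes did, and Lpcat3 for the averaged genotype difference, where 13% did. None of the 10 passed that level for genotype at 24 weeks (7.33% of all tested genes) or 42 weeks (17.3%), duration in Apoe-/-Mif-/- mice (13.1%), duration averaged (13.6%) or the interaction (14.2%). DESeq2 and limma likewise called none of the 10, with smallest adjusted p-values of 0.0771 (Abcg1, duration in Apoe-/- mice) and 0.554 (limma on the deposited variance-stabilised values).

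The fold changes of the 10 genes leaned lower without Mif at 42 weeks. In that comparison 7 of 10 were negative, with a median log2 fold change of -2.04 against 0.09 over all tested genes, of which 51.8% were positive. The 3 positive ones were Mylip (2.09), Nr1h2 (1.24) and Scarb1 (0.49). Without library 2 of the Apoe-/-Mif-/- mice Mylip was at 0.13 and Nr1h2 at -0.30, and without their library 4 Scarb1 was at -1.62. At 24 weeks 6 of 10 were negative, with a median of -0.56 against -0.18 over all tested genes (45.1% positive). Averaged over durations 8 of 10 were negative, with a median of -0.83 against -0.06 (48.1% positive). For 42 against 24 weeks, 7 of 10 were positive in Apoe-/- mice (median 0.69, against -0.12 over all tested genes, 47.3% of them positive) and 5 of 10 in Apoe-/-Mif-/- mice (median 0.11 against 0.12, 52.9% positive). The latter count was 7 with DESeq2's size factors and 1 without library 2 of the Apoe-/-Mif-/- mice at 42 weeks. Averaged over genotypes 7 of 10 were positive (median 0.64 against 0.01, 50.3% positive), and for the interaction 3 of 10, or 5 of 10 with DESeq2's size factors (median with TMM -0.66 against 0.26, 54% positive). These comparisons share libraries in pairs. Library 4 of the Apoe-/-Mif-/- mice at 42 weeks held the lowest level of the study for 7 of the 10 genes (Apoe, Abca1, Abcg1, Nr1h2, Nr1h3, Lpcat3 and Pltp). It had 3375979 counts, and 8.64% of its counts were mitochondrial, the highest of its group. Without that library the log2 fold changes of Mif deletion at 42 weeks were -2.43 for Abca1, -1.71 for Abcg1, -1.66 for Nr1h3 and -2.32 for Apoe. The mitochondrial share at 42 weeks ran from 1.94% to 8.64% (median 6.66%) in Apoe-/-Mif-/- libraries. In Apoe-/- libraries at 42 weeks it ran from 1.57% to 3.55% (median 2.36%). The part of this difference in the fold changes was not tested.

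**Figure D2:**
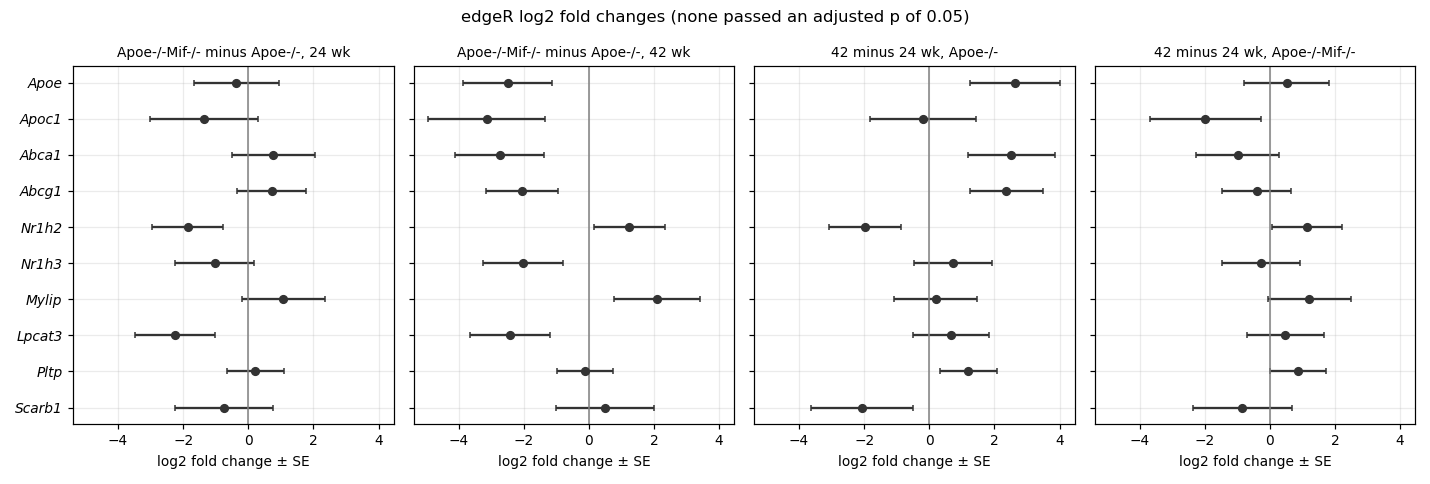
edgeR log2 fold changes (points) with their standard errors (bars) for the 10 genes in the genotype comparisons at 24 and 42 weeks and the duration comparisons in each genotype. In the genotype comparison at 42 weeks 7 of the 10 points lie below 0, and no point passed an adjusted p of 0.05.

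Among themselves, the exporters and Pltp formed the group of genes that varied most alike. Over 16 libraries Spearman's rho of log2 CPM was 0.82 for Abca1 and Pltp (Pearson's r 0.80, and 0.60 without the 2 libraries farthest from the median). It was 0.73 for Abca1 and Abcg1 (r 0.73, and 0.66) and 0.71 for Abcg1 and Pltp (r 0.66, and 0.51). Abcg1 and Lpcat3 reached 0.63 (r 0.65, and 0.36). These are the 4 of 45 pairs at 0.5 or above, or 8.89%, against 3.96% of all pairs of tested genes. The median over the 45 pairs was 0.16, against 0.03 over all pairs. After the group means were removed, r was 0.81 for Abca1 and Pltp and 0.60 for Abca1 and Abcg1. Leaving out each library in turn kept rho between 0.78 and 0.87 for Abca1 and Pltp and between 0.68 and 0.84 for Abca1 and Abcg1. All points of a pair share the same library and the same scaling, and no p is given. Of the receptor genes, Nr1h3 had a rho of 0.34 with Abca1 (r 0.39) and 0.46 with Abcg1 (r 0.58), the latter between 0.35 and 0.62 when each library was left out. Nr1h2 had a rho of 0.09 with Abca1 and -0.15 with Abcg1.

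**Figure D3:**
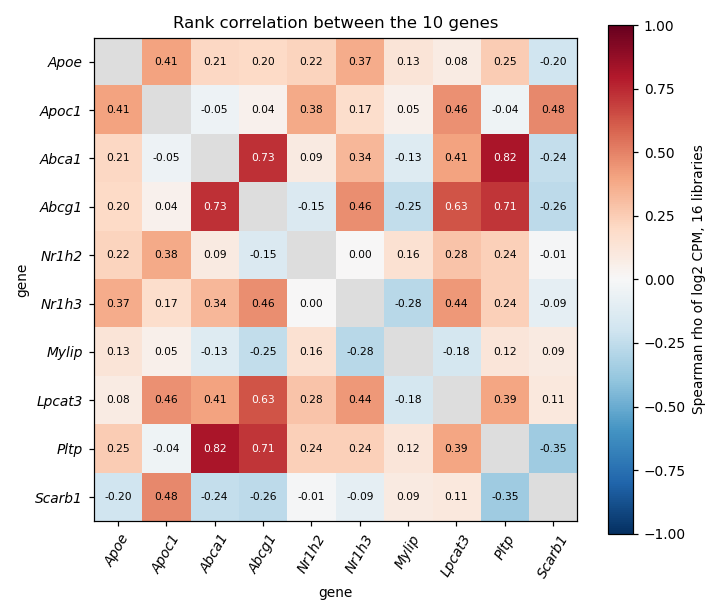
Spearman's rho of log2 CPM over the 16 libraries for each pair of the 10 genes, printed in each cell and coloured from -1 (blue) to 1 (red). The highest value is 0.82 for Abca1 and Pltp, the lowest is -0.35 for Pltp and Scarb1.

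The same 3 genes varied with the macrophage markers of the sections, though not with these alone. The summed level of 14 macrophage markers, all tested, had a rho of 0.82 with Pltp, 0.72 with Abca1 and 0.69 with Abcg1, while Pearson's r was lower, at 0.54, 0.54 and 0.59. When each library was left out in turn, the lowest rho values were 0.78, 0.66 and 0.63, and within plate row B they were 0.82, 0.72 and 0.67. The sum ran from 2228 to 18603 CPM in Apoe-/- and from 9656 to 21097 CPM in Apoe-/-Mif-/- arteries at 24 weeks, and from 14828 to 38704 and from 11080 to 35446 CPM at 42 weeks. Lyz2 was between 943 and 19449 CPM and Adgre1 between 1.56 and 164 CPM. In Apoe-/- mice the macrophage sum and the exporters were both higher at 42 than at 24 weeks in their means, and the part of the sum in the exporter values was not tested. In sections of whole vessel, fewer cells of a type and less RNA per cell cannot be told apart. The 10 foam cell markers, which share Lpl and Cd36 with the pathway lists, had a rho of 0.69 with Pltp, 0.66 with Abca1 and 0.62 with Abcg1. The summed skeletal muscle markers had a rho of -0.36 with Pltp, -0.67 with Abca1 and -0.61 with Abcg1. That sum ran from 10.5 to 4927 CPM in Apoe-/- and from 9.84 to 44.9 CPM in Apoe-/-Mif-/- arteries at 24 weeks. At 42 weeks it ran from 11.5 to 53.7 and from 20.6 to 458 CPM. Much of its rank order therefore lay among low values. For the summed hepatocyte markers rho was 0.47 with Pltp, 0.58 with Abca1 and 0.35 with Abcg1. Of these 11 markers only 4 were tested. Trf had a median of 305 CPM, against 0.619 CPM for Alb and 0.864 CPM for Ahsg. Medians of Ttr, Apoh, Fgb and Serpina1a were 0, so this sum is not a measure of liver transcripts in general. How far the amount of surrounding tissue enters these rho values was not tested.

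The other 7 genes had lower rho values. Spearman's coefficient with the macrophage sum was 0.19 for Lpcat3, 0.11 for Nr1h3, 0.04 for Mylip, -0.07 for Apoe, -0.17 for Nr1h2, -0.28 for Apoc1 and -0.37 for Scarb1. Apoe, a macrophage product in plaques of mice with the gene, was thus among those near 0. The library with 1127 CPM of Apoe had a macrophage sum of 18485 CPM, close to its group's median of 18429 CPM. For Lpcat3, Pearson's r with the macrophage sum was -0.03 over 16 libraries and 0.66 without the 2 libraries farthest from the median. Without the 2 farthest, r was 0.67 for Pltp, 0.64 for Abca1 and 0.66 for Abcg1, so Lpcat3 did not differ from these 3 by that measure. Lpcat3 stood apart in another way, with a rho of -0.81 with the summed level of 8 fibroblast markers (Pearson's r -0.77, and -0.74 without the 2 farthest libraries; rho -0.80 within plate row B). The fibroblast sum ran from 3735 to 23821 and from 13341 to 22577 CPM at 24 weeks and from 7369 to 20838 and from 3883 to 38329 CPM at 42 weeks (Apoe-/- first). Whether the fibroblast content has a part in the genotype difference of Lpcat3 was not tested. The share of mitochondrial counts had a rho of -0.48 with Abca1 and -0.46 with Abcg1.

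**Figure D4:**
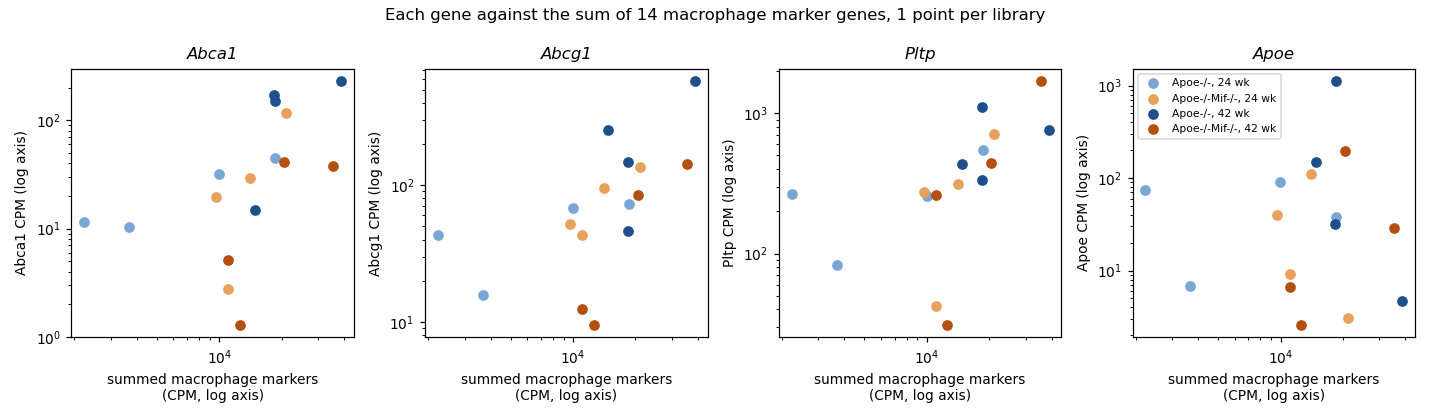
CPM of Abca1, Abcg1, Pltp and Apoe against the summed CPM of 14 macrophage markers, both on log axes, with 1 point per library coloured by group. Abca1, Abcg1 and Pltp lie higher where the marker sum is higher (rho 0.72, 0.69 and 0.82) and Apoe shows no such order (rho -0.07).

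By likeness of level over the 16 libraries, Abca1 was nearest to Atp6v1b2, a subunit of the lysosomal proton pump (rho 0.90), Csf2rb2, a cytokine receptor subunit of myeloid cells (0.88), and Clec7a, the macrophage beta-glucan receptor (0.87). Abcg1 was nearest to the chemokine gene Ccl6 (0.91), the lysosomal transporter gene Slc15a3 (0.90) and the von Willebrand factor gene Vwf (0.90). Vwf is 1 of the 10 endothelial markers, whose summed level had a rho of 0.13 with Abcg1 (Pearson's r 0.16). Apoe was nearest to Cyp4v3 (0.85), Stk32b (0.83) and Pelp1 (0.83), and Nr1h3 to Ccm2l (0.81), Ints7 (0.75) and Ap4s1 (0.74). Stk32b and Ccm2l were low, with medians of 1.32 and 1.75 CPM.

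Other genes of the pathway were followed through 3 lists. Of 22 LXR partners and other LXR targets, 17 were tested, of 27 other genes of cholesterol handling 19, and of 7 neighbours of Apoe 5. None of them was called for Mif deletion at either duration or averaged, nor for duration in either genotype or averaged. Only the interaction gave calls, both positive: 1 of 17 LXR partners and targets and 1 of 19 cholesterol genes, where 0.583% of all tested genes were called in that direction. The first was Scd1, a fatty acid desaturase and LXR target. Mean Scd1 levels with and without Mif were 1962 ± 2144 and 64.6 ± 51.2 CPM after 24 weeks, and 906 ± 847 and 1563 ± 1808 CPM at 42 weeks (SD, n = 4; log2 interaction 5.71 ± 1.45, edgeR adjusted p = 0.0498). The second was Ces1d, a carboxylesterase of adipocytes and liver. Ces1d averaged 289 ± 439 and 3.30 ± 2.46 CPM at 24 weeks and 17.3 ± 21.8 and 320 ± 242 CPM at 42 weeks in the same order (log2 interaction 10.62 ± 2.00, edgeR adjusted p = 0.0136). Both genes are abundant in fat. The summed level of 11 white adipocyte markers, 10 of them tested, ran from 194 to 26216 and from 230 to 1061 CPM at 24 weeks. At 42 weeks the sum ran from 464 to 13974 and from 454 to 29315 CPM (Apoe-/- first). Its part in these calls was not tested. The Scd1 call ended in 12 of the 16 fits that left out 1 library (edgeR adjusted p from 0.0153 to 0.107 over all 16) and held without library 3 or 4 of the Apoe-/-Mif-/- mice at 42 weeks or library 2 or 3 of the Apoe-/- mice at 24 weeks. The Ces1d call ended in 5 of 16 (edgeR adjusted p from 0.00363 to 0.0708): without library 1, 2 or 4 of the Apoe-/- mice at 42 weeks, and without library 1 of either group at 24 weeks. None of the 10 efflux genes was called for the interaction.

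Where no gene of these lists was called, the pair with the smallest p is given. For Mif deletion these were Scd1 (log2 -4.92) and Ces1d (-6.45) at 24 weeks, both with an edgeR adjusted p of 0.100. The 42-week values were Ces1d (4.18) and the lipid transporter gene Abca2 (-3.48), both at an edgeR adjusted p of 0.176. Averaged over durations they were Scd1 (-2.07, edgeR adjusted p = 0.216) and the transporter gene Abca7 (-3.08, adjusted p = 0.220). For 42 against 24 weeks in Apoe-/- mice they were Ces1d (-4.03) and Relb (3.94), which encodes a subunit of NF-kappa-B and lies near Apoe, both at an edgeR adjusted p of 0.322. Relb was at -0.75 without library 4 of the 42-week mice. In Apoe-/-Mif-/- mice they were Ces1d (6.59, edgeR adjusted p = 0.0607) and Scd1 (4.59, adjusted p = 0.0909). Averaged over genotypes they were the coactivator gene Ncoa1 (4.13, edgeR adjusted p = 0.0956) and Cyp27a1, sterol 27-hydroxylase (-3.54, adjusted p = 0.164).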

How the data were processed

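RNA of 16 brachiocephalic arteries was analysed. The authors deposited whole-number counts per gene symbol and a second table of variance-stabilised values on a log2 scale for 9578 genes. Per the submitters' processing notes, reads were handled with cutadapt 1.18, Trim Galore 0.6.4, FastQC 0.11.5 and STAR 2.5.2b on build GRCm39. The counting program and annotation are not given in the sources used here. Per the labels' protocols, libraries were made by Smart-seq2, without molecular identifiers. Reads of antisense or overlapping genes cannot be separated. Of 55359 deposited rows, 1 blank row (at most 0.00257% of a library) and 2 reporter rows were left out. Groups came from the genotype and diet labels, with a separate mouse named per library. Library numbers follow accession order and only name libraries.

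The main test was edgeR's quasi-likelihood test (version 4.0.16, R 4.3.3) after TMM scaling and filterByExpr (minimum count 10, total 15), in a single model of the 16 libraries (residual df 12), with Benjamini-Hochberg adjustment over 10634 genes at 0.05. SE is the size of the fold change divided by the root of its F statistic. The 7 comparisons share libraries. Exact permutation tests were two-sided on mean log2 CPM (prior count 2), 60 in all, unadjusted. Alternatives were DESeq2 1.42.0, limma 3.58.1 (voom, and the deposited log2 values), DESeq2's size factors, no filter, the groups compared alone, plate row B alone, and leaving out each library. Leaving out libraries or plate row C for the correlations, the top library for the means, and outlying libraries on log2 CPM, was added after seeing the data. On simulated counts of the same 10634 genes with the 24-week genotype comparison simulated, 0% of those changed 4-fold, 28% changed 16-fold, 66% changed 64-fold and 68% changed 256-fold were recovered.

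Length scaling used exon unions of GENCODE M21 (GRCm38), which may differ from the authors' annotation. The 10 genes, the marker and pathway lists and the tests were chosen with earlier results of these data known. By rule the text names all 10, Mif, the called genes of the pathway lists (or the 2 with the smallest p), and for Apoe, Abca1, Abcg1 and Nr1h3 the 3 named genes with the highest Spearman's rho.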

Additional observations from a re-analysis of the deposited data

Results flagged for a closer look

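In 10 of the 40 sets of 4 libraries (10 genes in 4 groups) the highest library lay far from the other 3, by Dixon's criterion at the 95% level; chance flags about 1 in 20 groups, and the genes share libraries. Apoe was flagged at 42 weeks in library 4 of the Apoe-/- mice (1127 CPM, against 148 CPM for the next) and library 3 of the Apoe-/-Mif-/- mice (194.2 CPM, next 29.2 CPM). Apoc1 was flagged in library 3 of the Apoe-/-Mif-/- mice at 24 weeks (30.6 CPM, next 2.62 CPM) and library 3 of the Apoe-/- mice at 42 weeks (69.4 CPM, next 6.32 CPM). Nr1h3 was flagged at 24 weeks in library 1 of the Apoe-/- mice (495 CPM, next 43.9 CPM) and library 3 of the Apoe-/-Mif-/- mice (189.5 CPM, next 40.2 CPM). Mylip was flagged at 42 weeks in library 4 of the Apoe-/- mice (160.4 CPM, next 27.3 CPM) and library 2 of the Apoe-/-Mif-/- mice (669.9 CPM, next 99.8 CPM). Scarb1 was flagged at 42 weeks in library 3 of the Apoe-/- mice (58.7 CPM, next 6.32 CPM) and library 4 of the Apoe-/-Mif-/- mice (82.6 CPM, next 13.2 CPM). These ratios were taken on linear CPM, which is bounded at 0 and widely spread, so low libraries can hardly be flagged and the chance rate is only nominal. On log2 CPM, a scale added after seeing the data, none of these 10 was flagged. There the only one of 40 was a low value of Abca1, 14.8 CPM against a next lowest of 149.97 CPM, from Apoe-/- 42-week library 1.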

How the results depend on the processing

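None of the 10 genes was called under any alternative run. Among the fold changes tracked, 4 changed sign. For Mif deletion at 42 weeks Nr1h2 was at -0.084 with voom and from -0.30 to 1.84 on leaving out 1 library, and Scarb1 at -0.032 with the deposited log2 values and from -1.62 to 2.81. For duration Abcg1 in Apoe-/-Mif-/- mice was at 0.39 with DESeq2's size factors and 0.38 with DESeq2, and Relb in Apoe-/- mice ran from -0.75 to 4.52 on leaving out 1 library. The lowest adjusted p of the 10 was 0.0771 with DESeq2, 0.190 without a filter and 0.142 on leaving out 1 library (edgeR, Lpcat3, genotype averaged over durations, without library 2 of the Apoe-/-Mif-/- mice at 42 weeks). The number of genes called among all tested did depend on the method. Without a filter it was 117, 150, 18, 419, 141, 368 and 426, in the order genotype at 24 and 42 weeks, duration in Apoe-/- and in Apoe-/-Mif-/- mice, genotype averaged, duration averaged and interaction, against 5, 0, 0, 13, 0, 4 and 73. With DESeq2 it was 210, 902, 391, 562, 392, 497 and 543. With voom and with the deposited log2 values it was 0 in every comparison. With DESeq2's size factors it was 0 for genotype at 24 weeks, 22 for duration in Apoe-/-Mif-/- mice and 16 for duration averaged. With only the groups compared it was 0 for genotype at 24 weeks and 25 at 42 weeks. Leaving out 1 library gave 0 to 21, 0 to 1, 0 to 0, 0 to 36, 0 to 1, 0 to 26 and 0 to 124 in the same order. The count of positive fold changes among the 10 for the interaction was 3, and 5 with DESeq2's size factors and with DESeq2; for duration in Apoe-/-Mif-/- mice it was 5, and 7 with both of these, 1 with voom and 1 without library 2 of the Apoe-/-Mif-/- mice at 42 weeks; for genotype averaged it was 2, and 1 with the deposited log2 values. DESeq2's size factors moved the median log2 fold change of all genes for duration in Apoe-/-Mif-/- mice from 0.12 to 0.54 and in Apoe-/- mice from -0.12 to 0.16. The Scd1 call for the interaction ended with those size factors (edgeR adjusted p = 0.0503), and both pathway calls ended with voom and with the deposited log2 values. No paired analysis was possible because the labels number no replicates and name a different mouse for each library. Depth limits Apoc1 and Scarb1 most, with fewer than 10 counts in 10 and 6 libraries.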
